A study of Mus musculus with 6 samples.

Results

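The miR-181 family of microRNAs (miRNAs) was examined in mouse skin with and without alopecia areata (AA), an autoimmune disease of the hair follicle that arises spontaneously in part of the inbred strain C3H/HeJ. Its members were the 4 array probes named for the unstarred mature strands, mmu-miR-181a, mmu-miR-181b, mmu-miR-181c and mmu-miR-181d, of 707 mouse miRNA probes in all, with 5 spots each per array. The AA group had 3 arrays, from skin that had lost hair in mice with spontaneous AA, and the unaffected group had 3, from normal haired skin. Each array held 1 sample of RNA from whole dorsal skin and was treated as 1-colour (Cy3), and all mice were C3H/HeJ. The labels give no age, sex or disease duration. The design note mentions several samples per mouse and does not tie them to arrays, so arrays may share a mouse. Any p-value here therefore reflects spread among 6 arrays that may be partly technical.

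miRNAs guide the silencing complex to messenger RNAs, chiefly through the seed, the bases 2 to 8 at their 5′ end. miR-181a is abundant in developing thymocytes, and in mouse T cells it lowers phosphatases such as Ptpn22 and Dusp6 that damp signalling from the antigen receptor, so that its level tunes how readily a T cell responds. miR-181b has been linked in mouse endothelium to repression of Kpna4, an importin that carries NF-κB into the nucleus. In AA, cytotoxic T cells gather around the growing hair follicle.

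The 4 target sequences are shown because the probes can share signal where the targets are nearly alike. Capitals mark the seed, and each sequence is the probe's target as deposited, 5′ to 3′.
miR-181a: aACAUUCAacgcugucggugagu
miR-181b: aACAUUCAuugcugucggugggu
miR-181c: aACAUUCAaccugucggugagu
miR-181d: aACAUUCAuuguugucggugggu
All 4 carried the same seed, and no other of the 707 probes had it. Outside the seed the members formed 2 close pairs. miR-181d differed from miR-181b by 1 substitution, C12U, counted from 1 at the 5′ end with the base of miR-181b first. miR-181c was 1 base shorter than miR-181a, and removal of the base at position 11 of miR-181a gave miR-181c. Between the pairs the targets were further apart: miR-181b differed from miR-181a by A9U, C10U and A21G, and miR-181c and miR-181d were 5 edits apart, where an edit is a base changed, added or removed. The closest targets outside the family lay 8 edits from miR-181a, 9 from miR-181b, 7 from miR-181c and 9 from miR-181d.

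The close pairs by sequence are not the pairs by genome position. The array files name no genome build, so positions come from matching the targets by name and sequence to RefSeq's table for GRCm38.p6, which held all 4 members at 6 loci. It lists the mature miR-181a at chr1:137966468-137966490 and chr2:38852741-38852763, both on the plus strand. miR-181b follows miR-181a at each, at chr1:137966650-137966673, with 159 bases between the mature strands, and at chr2:38853845-38853868, with 1081 bases between. miR-181c, at chr8:84178924-84178945, and miR-181d, at chr8:84178759-84178781, lie on the minus strand with 142 bases between them. The chromosome 2 copies lie within the span of Nr6a1, which encodes an orphan nuclear receptor, and of its antisense RNA Nr6a1os. The table does not give exons or introns there, and it lists no other gene over the other 4 loci. The RefSeq sequence was identical to the probe target for miR-181a, miR-181c and miR-181d and 1 base longer at the 3′ end for miR-181b. The probes read the mature strands, so the copies of miR-181a on chromosomes 1 and 2 cannot be told apart, nor those of miR-181b.

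Arrays differed in background and signal. The median raw intensity of the 145 empty control spots was 209, 490 and 530 on AA replicates 1 to 3 and 274, 168 and 189 on unaffected replicates 1 to 3. For the 88 miRNAs detected on all 6 arrays, the median signal was 1.46 to 3.33 times that empty-spot level on AA arrays and 4.20 to 16.9 times on unaffected arrays. AA replicate 3 had the lowest ratio. The median empty spot was brighter than the median miRNA spot on unaffected replicate 1 (274 against 168) and AA replicate 2 (490 against 399). On unaffected replicate 2 it was so only slightly (167.5 against 165.6). Of 7 keratinocyte miRNAs of skin epithelium, 7 were detected on at least 3 of the 6 arrays, miR-141 on only 1 AA array and 2 unaffected arrays. miR-205, an abundant keratinocyte miRNA, had a normalized log2 intensity of 12.89 ± 1.11 on AA arrays and 13.23 ± 0.20 on unaffected arrays (SD, n = 3 each).

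miR-181a was measured on every array. Its raw intensity, the mean over the 5 spots, was 1048, 1683 and 665 on AA replicates 1 to 3, against 1853, 1337 and 1205 on unaffected replicates 1 to 3. The detection limit of an array was the 95th percentile of its empty spots, and a probe whose mean exceeded it counted as detected there. miR-181a stood at 4.37, 2.81 and 1.16 times the limit on AA replicates 1 to 3 and at 5.39, 6.78 and 5.27 times on unaffected replicates 1 to 3, and all 30 of its spots were above the limit. The margin was thinnest on AA replicate 3.

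The other members were close to the background. miR-181b had a raw intensity of 256, 759 and 542 on AA replicates 1 to 3, against 250, 257 and 337 on unaffected replicates 1 to 3, and passed the limit on 2 AA arrays and 2 unaffected arrays. miR-181d, with 253, 710 and 541 in AA and 223, 237 and 403 in unaffected skin, was detected on the same arrays as miR-181b. Both missed the limit on AA replicate 3 and unaffected replicate 1. miR-181c had 286, 523 and 545 in AA and 263, 209 and 268 in unaffected skin, and was detected on 1 of 3 AA arrays (replicate 1) and 2 of 3 unaffected arrays (replicates 2 and 3). On AA replicate 3 these 3 probes lay at 0.97 to 0.98 times the array's median miRNA spot, that is, at the level of a typical miRNA probe of that array. On unaffected replicate 1 they lay below the empty spots but at 1.32 to 1.57 times the median miRNA spot. Likewise on AA replicate 2, miR-181c missed the limit but lay at 1.31 times the median miRNA spot.

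The 5 spots of a probe are technical repeats on 1 array. Their coefficient of variation was 2.86% to 16.3% over the members and arrays, with a median of 7.32%. After background correction the standard deviation (SD) between spots had a median of 0.13 log2 units for miR-181a, 0.17 for miR-181b, 0.20 for miR-181c and 0.26 for miR-181d. Of 120 member spots over the 6 arrays, 83 were above the detection limit, of which miR-181b and miR-181d gave 19 each and miR-181c 15.

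**Figure D1:**
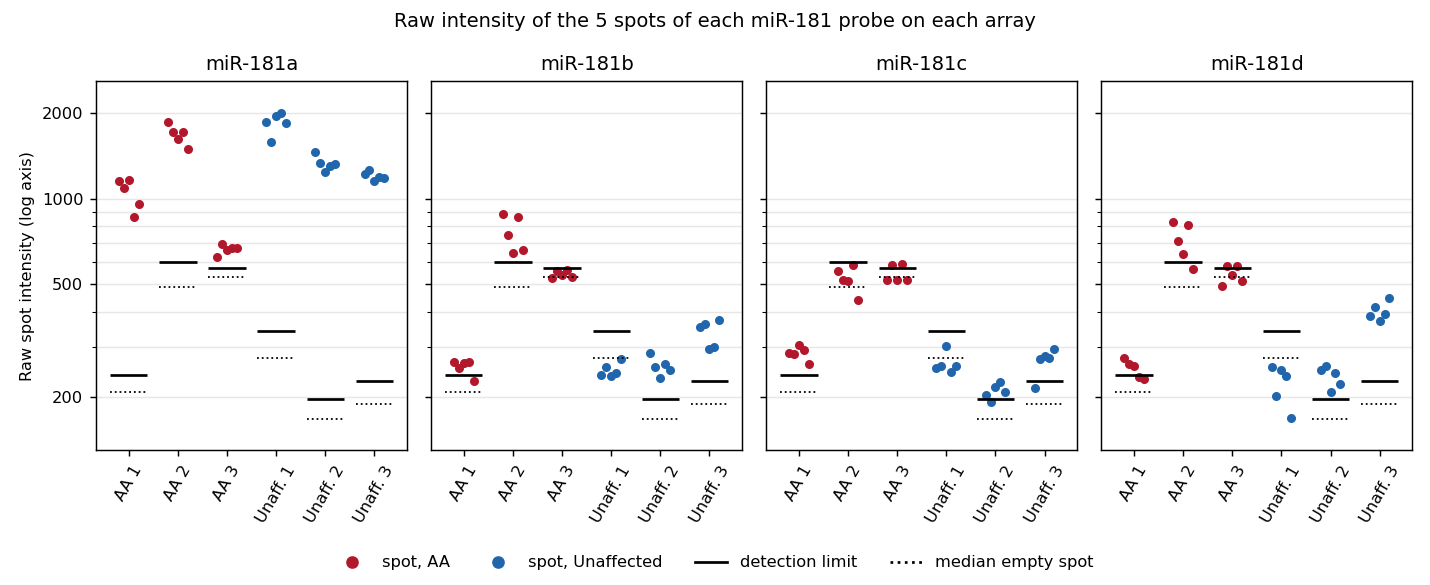
Raw intensity (log axis) of the 5 spots of each miR-181 probe on AA replicates 1 to 3 (red) and unaffected replicates 1 to 3 (blue), with each array's detection limit (solid line) and median empty spot (dotted line). The miR-181a spots lie above the limit on all 6 arrays, whereas those of miR-181b, miR-181c and miR-181d lie near or under it on AA replicate 3 and unaffected replicate 1. Those of miR-181c also lie under it on AA replicate 2.

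The comparison asks whether the family's level differs between AA skin and unaffected skin. All 4 members met the minimum for testing, detection on at least 3 of the 6 arrays, as did 157 miRNAs in all. None of the 4 differed between the groups beyond the spread between arrays. In limma, 0 members passed an adjusted p under 0.05 (Benjamini-Hochberg over the 157), and of all 157 miRNAs 0 passed (0%). At an unadjusted p under 0.05, 0 members and 12 of the 157 passed (7.64%). In whole skin, fewer cells of a type and less RNA per cell cannot be told apart. Values below are normalized log2 intensities, and differences are AA minus unaffected.

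miR-181a measured 10.69, 10.18 and 9.30 on AA replicates 1 to 3, against 11.06, 9.17 and 9.43 on unaffected replicates 1 to 3. The highest and the lowest of the 6 values were both from unaffected skin, so the AA values lay inside the unaffected range. The mean was 10.06 ± 0.70 for AA arrays and 9.89 ± 1.03 for unaffected arrays (SD, n = 3 each), a log2 difference of 0.17 with a standard error (SE) of 0.56 (limma adjusted p = 0.961). The 95% interval of the difference ran from -1.08 to 1.42, which in AA over unaffected is 0.472-fold to 2.67-fold. With 3 arrays against 3, a change anywhere in that range, lower or higher in AA, remained compatible with the values.

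The miR-181a difference rested on single arrays. Without unaffected replicate 1, the brightest, it was 0.76, and without unaffected replicate 2 it was -0.19. Without AA replicate 1 it was -0.15, without unaffected replicate 3 -0.060, and without AA replicate 3, the array of weakest signal, 0.55. None of these passed (limma adjusted p = 0.496 to 0.977).

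miR-181b measured 7.82, 8.60 and 6.88 on AA replicates 1 to 3, against 7.81, 7.50 and 7.67 on unaffected replicates 1 to 3. The AA arrays held both the highest value, on replicate 2, and the lowest, on replicate 3, and the unaffected values lay between them. The means were 7.77 ± 0.86 in AA and 7.66 ± 0.16 in unaffected skin, a difference of 0.11 (SE 0.47, limma adjusted p = 0.981) with an interval of -0.92 to 1.15. The difference was 0.55 without AA replicate 3 and -0.31 without AA replicate 2.

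miR-181d measured 7.79, 8.44 and 6.77 on AA replicates 1 to 3, against 7.56, 7.39 and 7.998 on unaffected replicates 1 to 3. As for miR-181b, AA replicate 2 was the highest array and AA replicate 3 the lowest. The difference was 0.021 (SE 0.47, limma adjusted p = 0.989), with an interval of -1.03 to 1.07. It was 0.47 without AA replicate 3, -0.36 without AA replicate 2 and 0.20 without unaffected replicate 3. It was between -0.11 and -0.024 without any 1 of the other 3 arrays.

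miR-181c measured 8.25, 7.61 and 6.88 on AA replicates 1 to 3, against 7.86, 7.28 and 7.44 on unaffected replicates 1 to 3. Here AA replicate 1 was the highest array, and AA replicate 3 again the lowest. The difference was 0.056 (SE 0.44, limma adjusted p = 0.981), with an interval of -0.91 to 1.02. It was -0.28 without AA replicate 1, -0.067 without unaffected replicate 2 and 0.40 without AA replicate 3.

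**Figure D2:**
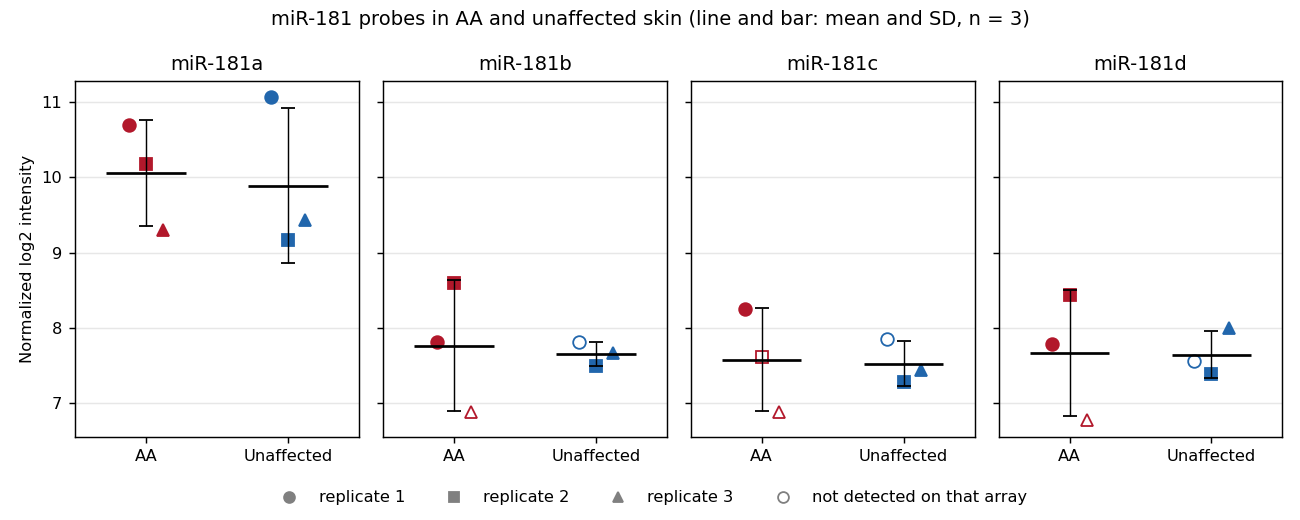
Normalized log2 intensity of each miR-181 probe on the 3 AA arrays (red) and the 3 unaffected arrays (blue), with the mean and SD of each group. Open symbols mark arrays on which the probe was not detected. The groups overlap for all 4 members, and the SD of AA skin exceeds that of unaffected skin for miR-181b, miR-181c and miR-181d.

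For 0 of the 4 members did the values of the groups fail to overlap, against 18 of the 157 tested miRNAs (11.5%), of which 7 were higher (4.46%) and 11 lower in AA (7.01%). The 4 differences were all above 0 with a median of 0.083, beside a median of -0.039 over the 157, of which 73 (46.5%) were above 0. Probes for nearly identical targets may share signal, so these are not 4 independent measurements, and each sign changed with some single array left out. The differences were small beside those of other miRNAs: 37 of the 157 had a smaller absolute difference than miR-181a, 27 than miR-181b, 15 than miR-181c and 4 than miR-181d. The spread between arrays was wide. The SD pooled within the groups was 0.88 for miR-181a, above that of 136 of the 157 miRNAs. It was 0.62 for miR-181b, 0.53 for miR-181c and 0.63 for miR-181d, beside a median of 0.50 over the 157.

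**Figure D3:**
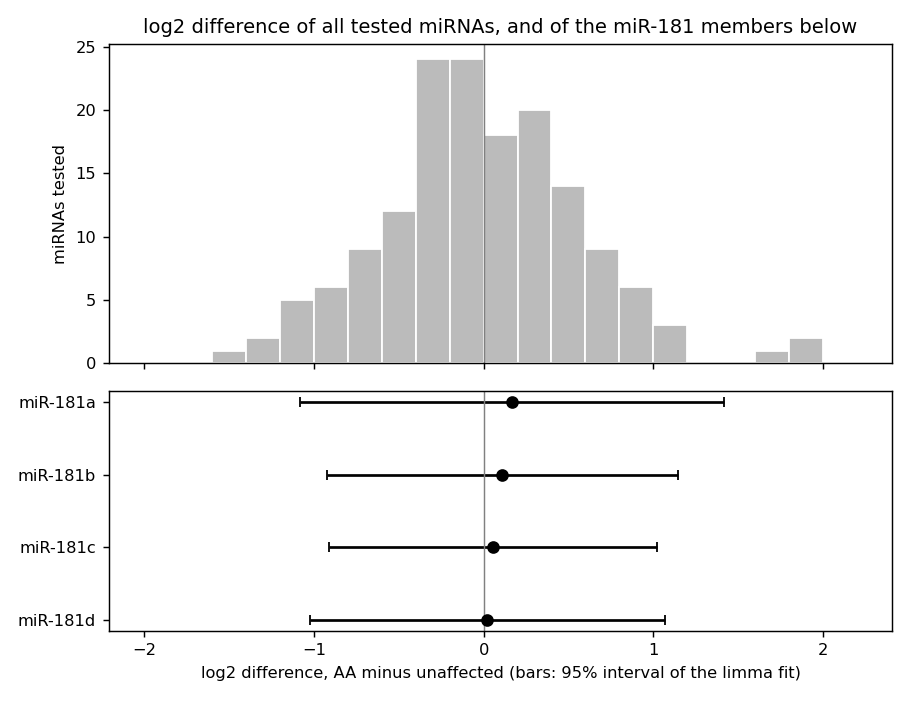
Top, the log2 differences (AA minus unaffected) of the 157 tested miRNAs. Bottom, the differences of the 4 miR-181 members (points) with their 95% intervals (bars), which run from 0.021 for miR-181d to 0.17 for miR-181a and whose intervals all include 0.

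The authors' processed value table, made by an unstated normalization, gave miR-181a a linear intensity of 1587, 1086 and 568 on AA replicates 1 to 3, against 1696, 515 and 556 on unaffected replicates 1 to 3. In it unaffected replicate 1 was again the brightest array, and unaffected replicates 2 and 3 lay with AA replicate 3. miR-181b had 136, 262 and 77.9 in AA and 135, 94.7 and 130 in unaffected skin, which also puts both extremes in AA. On log2(value + 16) the differences were 0.33 for miR-181a, 0.23 for miR-181b, 0.27 for miR-181c and 0.17 for miR-181d, and none passed (limma adjusted p = 0.906 to 0.939).

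The members did not all follow one pattern over the 6 arrays. Over all 6 arrays the pairs most alike in sequence had the highest Pearson correlations: r was 0.94 for miR-181b with miR-181d (Spearman's rho 0.83) and 0.84 for miR-181a with miR-181c (rho 0.89). The 4 pairs with targets 3 to 5 edits apart had r of 0.34 to 0.59. Among them was miR-181a with miR-181b, neighbours at 2 loci, at 0.51, and miR-181c with miR-181d, neighbours on chromosome 8, at 0.55. By rank the close pairs did not stand apart: rho was 0.43 to 0.83 for the 4 pairs further apart. The 0.83 was for miR-181b with miR-181c, as high as for miR-181b with miR-181d. These values describe 6 arrays that differ in signal and come from 2 groups, and they include arrays on which the dim members were below the detection limit. They carry no test. Among 156 other tested miRNAs, miR-181d ranked first in likeness to miR-181b, whereas miR-181a ranked 36.

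This order of the pairs did not hold with some sets of 2 arrays left out. With any 1 array left out, r was 0.86 to 0.99 for miR-181b with miR-181d and 0.84 to 0.90 for miR-181a with miR-181c. The highest such value among the other pairs was 0.87, for miR-181b with miR-181c. Without AA replicates 2 and 3, which are farthest from the median of miR-181b, r was 0.40 for miR-181b with miR-181d, below the 0.89 of miR-181b with miR-181c. Without AA replicate 1 and unaffected replicate 1, the farthest from the median of miR-181a, r was 0.69 for miR-181a with miR-181c, below 0.88 with miR-181b and 0.79 with miR-181d. Leaving out the arrays farthest from a member's median removes much of its spread: miR-181b then ran only from 7.50 to 7.82. The order of r on the remaining arrays therefore cannot decide whether likeness in signal follows likeness in sequence. miR-181b minus miR-181d stayed within 0.58 log2 units over the 6 arrays, where the range was 1.28 to 2.07 for the other 5 pairs. Over 8 processing settings, miR-181b with miR-181d had r of 0.90 to 0.98 and the smallest SD of the difference of all pairs in 8 of 8. miR-181a with miR-181c had 0.65 to 0.96. These 2 pairs held the highest values of r in 6 of the 8. In the other 2, no normalization and scaling by the probes found on every array, miR-181b with miR-181c had r of 0.91 and 0.93 and took second place. The part of shared hybridisation between near-identical targets was not tested.

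**Figure D4:**
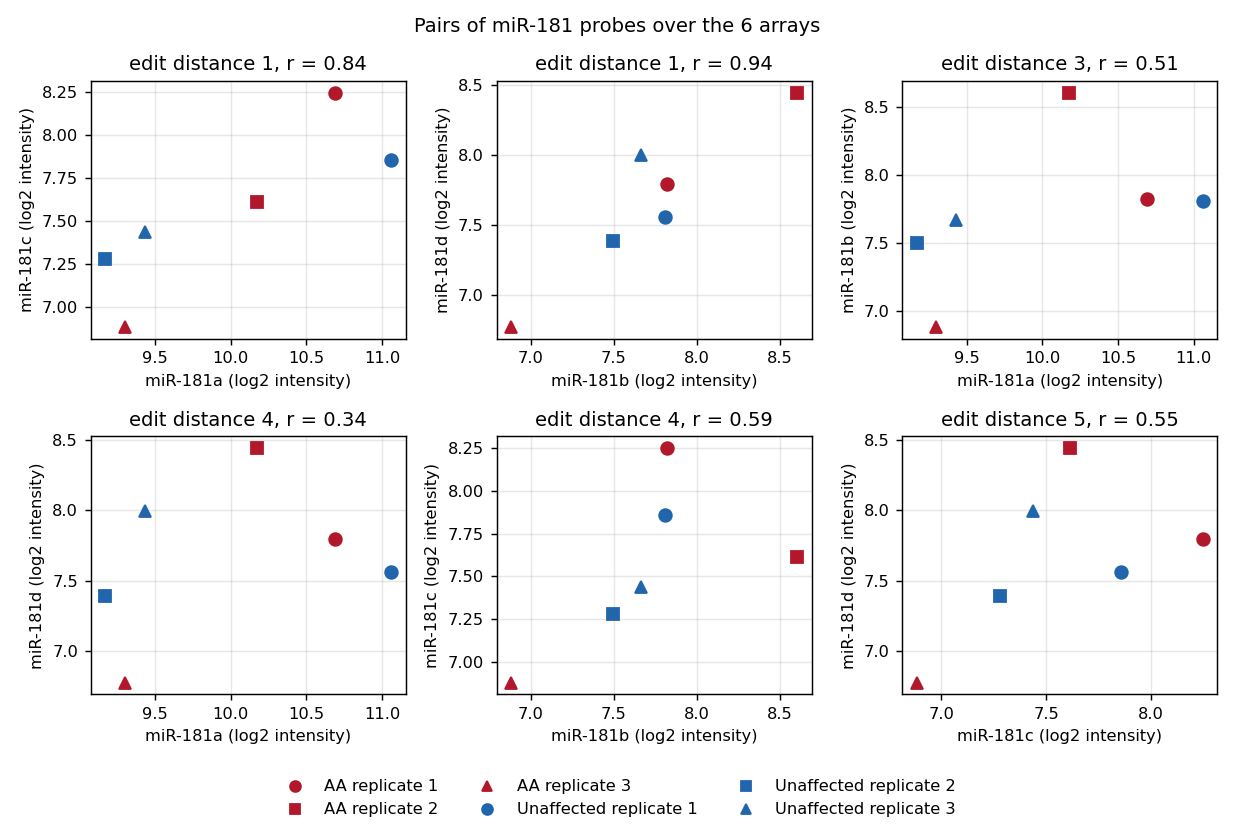
Normalized log2 intensity of each pair of miR-181 probes on the 3 AA arrays (red) and the 3 unaffected arrays (blue), ordered by the number of edits between their targets. The 2 pairs that differ by 1 edit have r of 0.84 and 0.94, and the other 4 have 0.34 to 0.59.

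With quantile normalization the within-array differences between members did not separate the groups. For miR-181a minus miR-181b the difference was 2.29 ± 0.66 for AA arrays and 2.23 ± 0.89 for unaffected arrays (SD, n = 3 each). Over the 6 pairs the difference between groups was 0.034 to 0.15, and the exact permutation test (two-sided) gave p = 0.9 to 1, all 1 after adjustment over the 6 pairs. The smallest p that 3 arrays against 3 allow is 0.1.

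These differences set miR-181a against probes that were not above the detection limit on every array. miR-181b and miR-181d were below the limit on AA replicate 3 and unaffected replicate 1, and miR-181c on those 2 and AA replicate 2. How far their values there follow the array's background was not tested. With arrays scaled only, miR-181a minus miR-181b, miR-181c and miR-181d differed between the groups by -0.998, -1.06 and -0.96 (exact permutation p = 0.1 to 0.2, and 0.4 after adjustment over the 6 pairs). For miR-181a minus miR-181c the groups did not overlap, at 0.98 to 2.38 in AA and 2.47 to 3.23 in unaffected skin. Its permutation p of 0.1 is the smallest possible. The signal over empty spots was also lower on every AA array than on every unaffected array. No unequal change of the members can be read from these values.

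Some miRNAs outside the family ran close to a member over the 6 arrays. Those most like miR-181a among 153 others were miR-484 (r = 0.97), miR-331-3p (0.95), miR-2141 (0.94), miR-320 (0.90) and miR-92a (0.90), a member of the miR-17 cluster that is active in proliferating lymphocytes. Those most like miR-181b were miR-146b, miR-205, miR-1940, miR-182 and miR-341 (0.81 to 0.92). miR-182, miR-205 and miR-146b were also among the 5 most like miR-181d, with miR-23b and miR-429 (0.80 to 0.96). For miR-181c they were miR-151-3p, miR-455, miR-331-3p, miR-744 and miR-125b-5p (0.91 to 0.96). Their targets were 9 to 18 edits from that of the member. These are the highest of 153 candidates over 6 arrays that share a chip design and differ in signal, and they are a description with no test.

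Other lymphocyte miRNAs gave a comparison for the family. Of a list of 10 chosen for expression or function in lymphocytes, 4 were tested and 0 passed in either direction in limma. An unadjusted limma p under 0.05 was found for 1 of the 4, beside 12 of all 157 (7.64%). With quantile normalization the median log2 difference of the 4 was 0.54, beside -0.039 over all 157. List medians were not computed under other scalings, where the median of all 157 ran from -0.95 to 0.53. Lists for other cell types had medians below 0, also with 0 members passing: -0.83 for skeletal muscle (4 of 4 tested members lower in mean), -0.39 for keratinocytes (6 of 7), -0.42 for red cells (2 of 2) and -0.12 for fibroblasts and smooth muscle (3 of 5). The only tested endothelial miRNA, miR-126-3p, had -1.01 and the only tested myeloid one, miR-223, -0.52. miR-146a, induced by T cell activation, was 9.61 ± 0.32 in AA and 8.68 ± 0.37 in unaffected skin (difference 0.94, SE 0.39, limma adjusted p = 0.566). miR-150, characteristic of mature lymphocytes, was 9.45 ± 0.38 in AA and 8.71 ± 0.40 in unaffected skin (0.74, SE 0.40, adjusted p = 0.588). miR-92a had a difference of 0.34 and miR-17 of 0.0061.

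The mean of miR-146a and miR-150, the tested members of a list of 6 lymphocyte markers, was 9.35 to 9.67 on AA arrays and 8.64 to 8.75 on unaffected arrays. Singly, the groups did not overlap for miR-146a, as for 18 of the 157 tested miRNAs (11.5%), and overlapped for miR-150. miR-146a was detected on 3 AA arrays and 2 unaffected arrays. The mean of the 4 miR-181 members was 7.46 to 8.71 in AA and 7.83 to 8.57 in unaffected skin, where AA held both extremes. The AA low, on replicate 3, averages 3 members that were below the detection limit there, so its order against the lymphocyte markers is not read. Of the remaining lymphocyte markers, miR-142-3p, miR-142-5p and miR-155 were detected on 0 of 6 arrays, and miR-342-3p on 1 array of each group. Their log2 differences, with no test, were -0.024, -0.17, 0.56 and 0.051 in that order.

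The passenger strands on the array, miR-181a-1* and miR-181a-2*, which come from the opposite arm of the miR-181a hairpins, were detected on 0 of 6 arrays. The raw intensity of miR-181a-1* was 201, 345 and 549 on AA replicates 1 to 3 and 168, 154 and 186 on unaffected replicates 1 to 3. That was 0.49 to 0.84 times the detection limit outside AA replicate 3, where it was 0.96 times. Neither strand separates the miR-181a loci at this sensitivity.

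**Figure D5:**
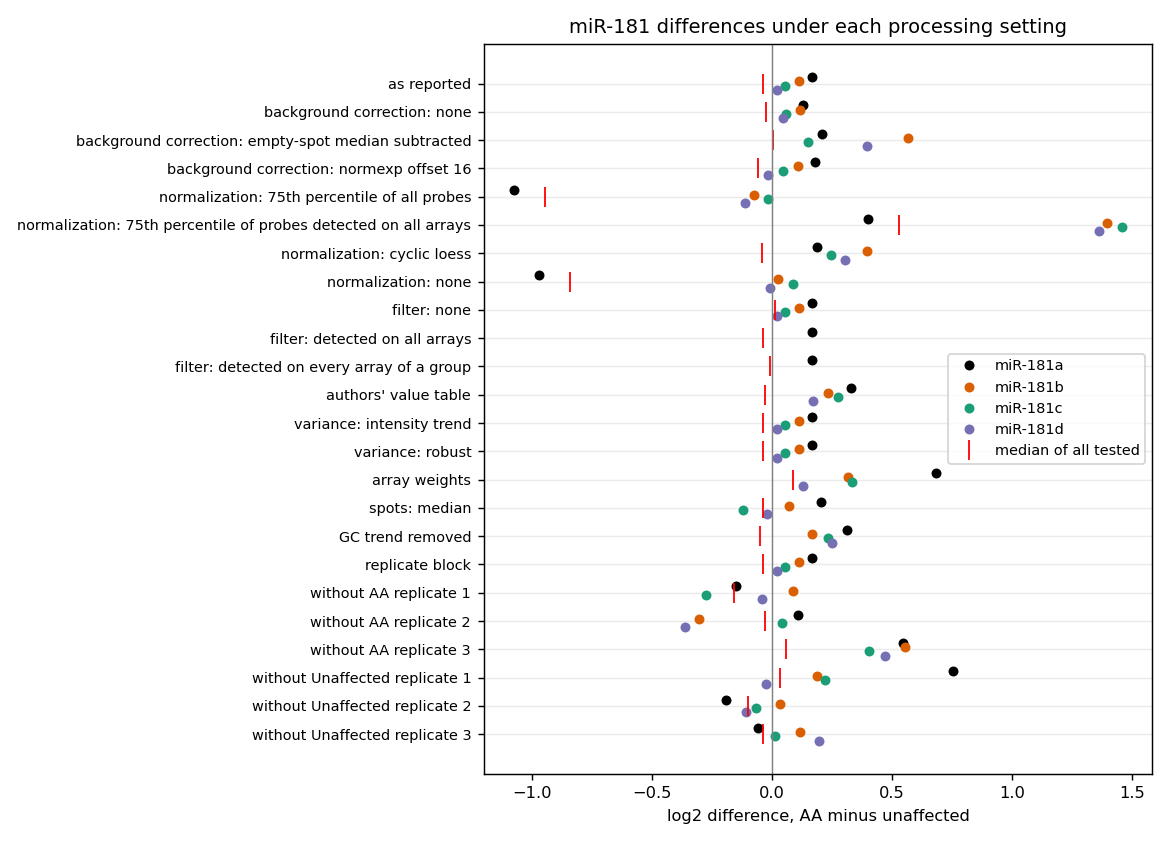
The log2 difference (AA minus unaffected) of each miR-181 member under each processing setting, with the median over all tested miRNAs in that setting (red tick). With each array left out the values run from -0.36 to 0.76. Scaling by the 88 miRNAs measured throughout puts miR-181b, miR-181c and miR-181d at 1.36 to 1.46, and scaling by all probes puts miR-181a at -1.07, where the median of all tested miRNAs is -0.95.

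The differences depended on how arrays were brought to a common scale. With arrays scaled by the 88 miRNAs measured above the limit on all 6 (their 75th percentile), miR-181b, miR-181c and miR-181d differed by 1.40, 1.46 and 1.36 and miR-181a by 0.40. The median of all 157 moved to 0.53 in that setting, so relative to it the dim members were higher in AA by 0.84 to 0.93, and miR-181a lower by 0.13. The dim members had unadjusted p of 0.027 to 0.032, in a setting where 30 miRNAs of the 157 were higher and 2 lower at an unadjusted p under 0.05, and none passed (limma adjusted p = 0.197 to 0.210).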

How the data were processed

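The deposited scanner files give, per the file headers, the mean pixel intensity of each spot without local background or normalization. The authors' deposited value table gives processed intensity of 755 probes by an unstated method. On the log2 scale its columns correlated at r = 0.995 to 0.999 with the scanner values after subtraction of the empty-spot median. This covered the 88 miRNAs detected on all arrays. Column medians were 34.2 to 44.3. Unsubtracted scanner values were not compared, so whether the columns were background-subtracted was not tested. The value table served as an alternative. The label protocol describes poly(A) tailing and Cy3 staining, whereas the extract protocol speaks of biotin-labelled cRNA. The arrays were treated as 1-colour Cy3. The image software and its settings are not named in the protocols.

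Intensities were corrected with normexp (offset 50, limma 3.58.1, R 4.3.3), averaged as log2 over 5 spots and quantile-normalized over 707 probes. The groups were compared in limma (lmFit and eBayes, AA minus unaffected, two-sided, Benjamini-Hochberg over 157 miRNAs). The procedure was tested on simulated data. Named miRNAs were the members, their passenger strands, the 5 tested miRNAs of highest Pearson r with each member, and fixed marker lists. Members and lists were chosen with earlier results of these data known. Groups came from the sample descriptions. In all, 23 alternative settings were run. Exact permutation tests served the differences between members. The number of arrays limits the precision.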

Additional observations from a re-analysis of the deposited data

How the results depend on the processing

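Under none of the 23 alternatives for miR-181a, or the 21 for each other member, did a member pass (lowest limma adjusted p 0.197). miR-181b, miR-181c and miR-181d were not tested under the 2 stricter detection filters. Scaling to the 75th percentile of all probes gave -1.07 for miR-181a, -0.077 for miR-181b, -0.016 for miR-181c and -0.11 for miR-181d, where the median of all tested miRNAs was -0.95. No normalization gave -0.97 for miR-181a and -0.0089 for miR-181d (median -0.84). Both settings shift all miRNAs: relative to the median, miR-181a was at -0.13 and miR-181b, miR-181c and miR-181d at 0.87, 0.93 and 0.84, as under scaling by the probes detected throughout, so only miR-181a turned sign relative to it. The median of spots gave -0.12 for miR-181c and -0.023 for miR-181d, and a normexp offset of 16 gave -0.016 for miR-181d. With each array left out, the differences ran from -0.19 to 0.76 for miR-181a, -0.31 to 0.55 for miR-181b, -0.28 to 0.40 for miR-181c and -0.36 to 0.47 for miR-181d. The cause of these changes was not tested. Calls over all 157 miRNAs ran from 0 to 2 higher and 0 to 3 lower in AA with 1 array left out: 2 and 3 without unaffected replicate 1, 2 and 0 without unaffected replicate 2, with 0 members among them, and 0 under each other alternative. The within-array differences of miR-181a minus miR-181b, miR-181c and miR-181d were -0.998, -1.06 and -0.96 under both 75th-percentile scalings. They include values below the detection limit, whose part was not tested. Deviations of arrays with the same replicate number correlated at 0.14, -0.10 and -0.12, and 1 of 6 arrays was closest to its own number. With 3 arrays a group that differ in background and signal, these values cannot tell whether the numbers pair the samples. With the replicate block the count of calls was 0, and the difference of miR-181a was 0.17 (limma adjusted p = 0.951). With 3 arrays a group, and miR-181b, miR-181c and miR-181d near the empty spots, only large changes were detectable.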
